A study of Homo sapiens with 4 samples.

Results

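The 10 genes described here were CDH1, EPCAM, ESRP1, ESRP2, GRHL2, OVOL1, ELF3, CLDN3, CLDN4 and CLDN7, out of 19970 protein-coding genes that GENCODE release 44 places on chromosomes 1 to 22 and X. They were chosen by name as genes of epithelial junctions, epithelial splicing and the transcription factors that go with them. For each gene, peaks of the histone mark H3K27ac were counted within 1 kb of the canonical start site, called the promoter, and within 50 kb of the gene body on the hg38 assembly. The mark had been mapped by chromatin immunoprecipitation and sequencing (ChIP-seq) in MDA-MB-231 and Hs578T, established human triple-negative breast cancer cell lines with mesenchymal features, with 2 libraries per line. All 4 libraries came from cells that had been starved for 8 h and then treated with the cytokine TWEAK at 10 ng/ml for 48 h. The labels also list a replenishment step, at the same time for all 4 libraries. According to the labels the cells were then washed out for 72 h, although the text of the paper describes a longer wash-off. No library of untreated cells or of cells in the presence of TWEAK was analysed here, and the values show where the mark lay after wash-off and not what TWEAK changed.

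CDH1 encodes E-cadherin, which holds epithelial cells together at adherens junctions, while claudins form the strands of tight junctions and EPCAM is an adhesion protein of the epithelial surface. ESRP1 and ESRP2 are RNA-binding proteins that set the epithelial splice forms of transcripts such as FGFR2 and CD44, and GRHL2, OVOL1 and ELF3 are transcription factors of the epithelial programme. In mesenchymal cells several of these genes are held down by repressors such as ZEB1 and the SNAIL proteins, which bind E-box motifs in promoters, and H3K27ac is a mark of active promoters and enhancers.

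Only 209 peaks on these chromosomes came from the library labelled MDA-MB-231 replicate 1, against 43353 from replicate 2 of that line and 46330 and 44920 from the Hs578T replicates, which are called the 3 large lists below. None of the 209 peaks fell within 50 kb of any of the 10 genes, and the peak closest to any of their start sites was 178881 bp upstream of EPCAM. In that list 0.0601% of all protein-coding promoters had a peak and 1.61% of genes had a peak within 50 kb, so its lack of peaks says nothing about the epithelial genes. Every result on MDA-MB-231 therefore rests on 1 library. Of 71 regions formed by merging overlapping peaks of the 3 large lists around the 10 genes, 6, or 8.45%, were shared by MDA-MB-231 replicate 2 and Hs578T replicate 1 alone and 1, or 1.41%, by the Hs578T replicates alone. Over the whole genome the order was the other way, with 3.41% and 5.51% of 50576 regions. Read numbers were not used here and the sequencing depth is unknown, so a missing peak means that none passed the authors' threshold, and not that the mark was absent.

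Among the epithelial genes, the promoters of ESRP2, ELF3, CLDN3, CLDN4 and CLDN7 carried H3K27ac in all 3 large lists, and those of CDH1, ESRP1 and OVOL1 were without a peak in any list. The EPCAM promoter was marked in MDA-MB-231 replicate 2 and Hs578T replicate 1, and the GRHL2 promoter in MDA-MB-231 replicate 2 alone. The lists thus held a promoter peak for 7 of 10 genes in MDA-MB-231 replicate 2, 6 of 10 in Hs578T replicate 1 and 5 of 10 in Hs578T replicate 2. Over all protein-coding genes the percentages with a promoter peak were 58.1%, 58.2% and 56.4%, so the 10 genes lay near the background. The same held for the 5 of 10 marked in all 3 large lists, where the background was 55.6%, and for the 3 of 10 marked in none of them, where it was 40.7%. An exact two-sided test of 2 libraries against 2 reaches no p-value lower than 0.333, so the lines were not tested against each other.

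All 10 genes had a peak within 50 kb of the gene body in each of the 3 large lists, while the background was 86.9% in MDA-MB-231 replicate 2, 87.1% in Hs578T replicate 1 and 87% in Hs578T replicate 2. A peak this near is thus the rule for any gene, and the members differed in whether these peaks lay at their own promoter, in their own body or at a neighbour. Where a peak was called, its strength was described by the fold enrichment, the ratio of ChIP signal over the local background averaged along the peak, as deposited by the authors. These ratios refer to each library's own background, so they were ranked within a list and their sizes were not compared between lists. The median fold enrichment of the marked promoters among the 10 genes was 7.17, 7.84 and 8.12 in the 3 large lists in the order above, and 9.18, 8.13 and 6.86 for all marked promoters.

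**Figure D1:**
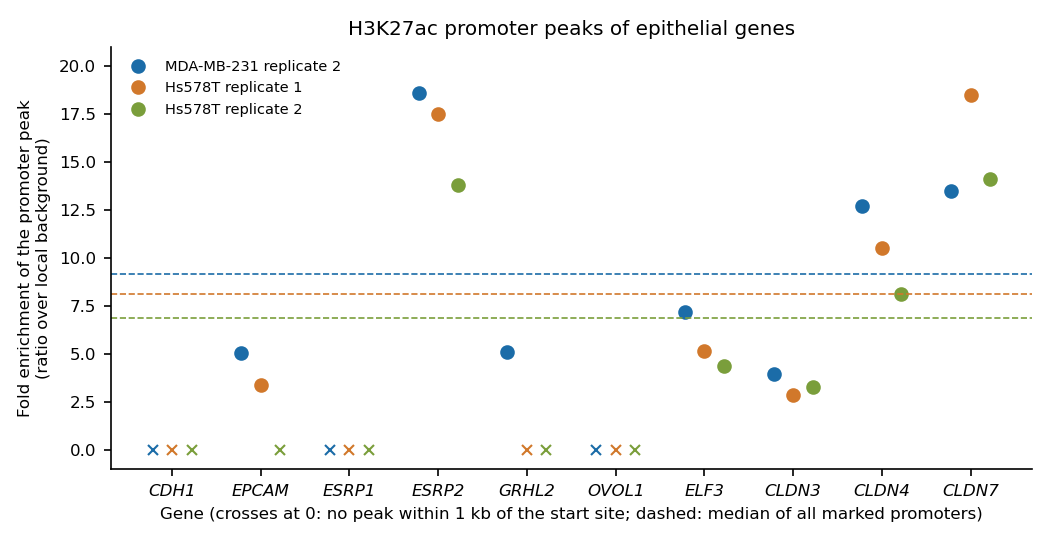
Fold enrichment (ratio over the local background) of the strongest H3K27ac peak within 1 kb of the canonical start site of each epithelial gene, with a point per library for the 3 large lists and a cross at 0 where no peak was called. Dashed lines give the median of all marked promoters in the same list: ESRP2, CLDN4 and CLDN7 lie above their lines in every list, while EPCAM, GRHL2 and CLDN3 lie below theirs wherever they were marked, as does ELF3.

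Of the adhesion genes, CDH1 lacked a promoter peak but had many peaks inside its body. Its start site at position 68737292 of chromosome 16 lay in a gap without peaks of 8.35 kb in MDA-MB-231 replicate 2, 8.61 kb in Hs578T replicate 1 and 8.51 kb in Hs578T replicate 2. The gap was bounded by peaks on both sides. The upstream peak ended 4.48, 4.44 and 4.34 kb before the start site, in intergenic sequence, and the downstream peak began 3.88, 4.17 and 4.17 kb after it, in intron 2. A peak this near was uncommon for a promoter without one, since the median distance to the nearest peak over all such promoters was 35.1, 34.1 and 33.9 kb, and only 8.19%, 9.7% and 9.38% of them had a nearer peak.

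The body of CDH1, 98.2 kb long, held 9 peaks in MDA-MB-231 replicate 2, 8 in Hs578T replicate 1 and 9 in Hs578T replicate 2, which covered 15.2%, 14.2% and 14% of it. Such bodies were rare among unmarked promoters: 0.923% of the 8122 genes without a promoter peak in the 3 large lists, or 75 genes with CDH1 among them, had at least 8 body peaks in each list, a limit set at the CDH1 value itself. Gene length bears on this count, and all 75 were at least as long as CDH1, which makes 5.3% of the 1414 unmarked genes of that length. By contrast, 71.8% of the genes without a promoter peak had no body peak in any of the 3 lists. Merging the lists gave 9 body regions, of which 7 lay in intron 2, 1 in intron 6 and 1 in intron 13. The strongest spanned 5435 bp of intron 2 at chr16:68789163-68794597, 51871 bp downstream of the start site, with a fold enrichment of 14.2, 12.9 and 9.31 in the 3 large lists. It exceeded every other peak inside the gene in each list, the next being the intron 13 region with 8.5, 9.69 and 7.34, which also covers the start of a long non-coding RNA (ENSG00000260798). Within 50 kb of CDH1 a further strong region, with 13.2, 11.3 and 8.48, lay in the body of CDH3, the gene of the related P-cadherin just upstream, and the last peak downstream, with 7.63, 6.09 and 4.71, belonged to the start of TANGO6.

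EPCAM was the gene whose promoter call differed between the Hs578T replicates. The peak at its canonical start, position 47369311 of chromosome 2, had a fold enrichment of 5.04 in MDA-MB-231 replicate 2 and 3.36 in Hs578T replicate 1, and none was called in Hs578T replicate 2, whose nearest peak was 11.7 kb upstream. Both values were low for a promoter, higher than 15.9% and 6.03% of the marked promoters of their lists. A weak peak of this kind can come from few cells with the mark or from little of it in every cell, and these cannot be told apart in a bulk library. Stronger peaks of the locus lay on both sides. Those upstream lay under the part of EPCAM that belongs to a transcript starting 24153 bp before the canonical one. A region over that upstream start, shared with the start of the divergent non-coding gene EPCAM-DT, had a fold enrichment of 9.09, 8.02 and 8.4, and another that ended 13076 bp before the canonical start had 14.7, 12.8 and 10.9. Both upstream regions were present in all 3 large lists, unlike the peak at the canonical start and some weak ones. Downstream, a region in the body of another gene, 51170 bp from the canonical start, had 9.53, 9.77 and 8.51.

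The splicing regulators ESRP1 and ESRP2 stood at opposite ends of the group. ESRP1, whose start site is at position 94641174 of chromosome 8, lay in a region of 164 kb without a peak in each of the 3 large lists. The nearest peaks were 86.5, 86.6 and 86.7 kb upstream and 77.1, 77.8 and 77.4 kb downstream. No peak lay in its body of 66.4 kb, and the only peak within 50 kb of it was that at the start of the neighbour DPY19L4, with a fold enrichment of 8.16, 6.99 and 4.89. Its distance to the nearest peak exceeded that of 68.9%, 69.7% and 70% of the unmarked promoters. The only mark called around ESRP1 was thus at a neighbour's start.

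ESRP2 had a promoter fold enrichment among the highest of the group in every large list. Its peak had 18.6 in MDA-MB-231 replicate 2, 17.5 in Hs578T replicate 1 and 13.8 in Hs578T replicate 2, higher than 89.9%, 90.9% and 90.2% of marked promoters. The peaks were 2409, 2642 and 2051 bp wide and did not cover the start site at position 68236127 of chromosome 16 itself, since they ended 189, 292 and 304 bp upstream of it. That stretch also holds the start of a non-coding gene (ENSG00000261469), so the calls do not tell which of the pair the peak belongs to. The next region upstream ended 21542 bp away, inside PLA2G15, with values of 3.12, 4.97 and 3.62. The strongest peak near ESRP2 in MDA-MB-231 replicate 2 and Hs578T replicate 1 was instead that at the start of SLC7A6, an amino acid transporter gene, with 24 and 20.9, whereas in Hs578T replicate 2 its value of 13.4 was just below that of the ESRP2 promoter.

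**Figure D2:**
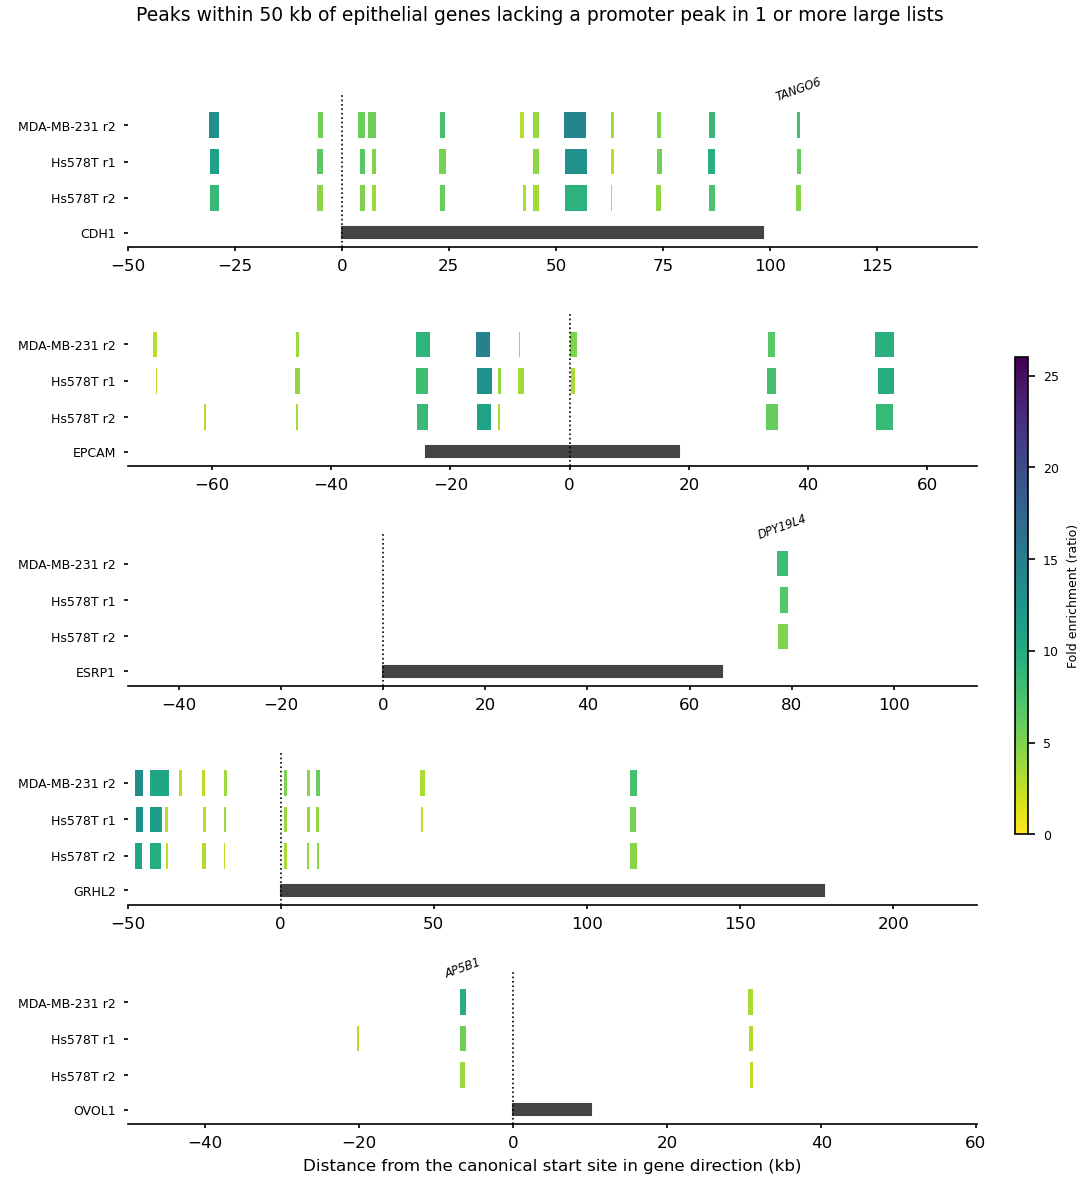
Peaks of the 3 large lists (rows) around the epithelial genes that lacked a promoter peak in at least 1 of them, by distance from the canonical start site in kb and in the direction of the gene, coloured by fold enrichment (ratio). The dark bar is the annotated gene body, the dotted line the start site, and names mark some of the peaks at the start of another protein-coding gene: CDH1 has 8 or 9 peaks in its body, and the peak at DPY19L4 is the only one around ESRP1.

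GRHL2, a Grainyhead factor that maintains epithelial gene expression, was a borderline case. The edge of its nearest peak lay 962 bp downstream of the start site in MDA-MB-231 replicate 2, just within the limit of 1 kb, and 1235 and 1204 bp downstream of it in the Hs578T replicates, just outside. The region was the same in the 3 large lists, in intron 1, with a fold enrichment of 5.12, 3.95 and 3.42, so the different promoter calls came from a shift of its edge. It also lay within 1 kb of the start of a non-coding gene (ENSG00000254024), so it cannot be assigned to GRHL2 alone. Over its body of 177 kb, peaks covered 3.81%, 3.07% and 2.5%. The body peaks lay in intron 1 and, 114033 bp from the start site, in intron 8, where the fold enrichment was 7.67, 5.35 and 4.63. The strongest peaks of the locus were upstream, at a non-coding gene (ENSG00000254084). A region over the start of that gene, which ended 36587 bp before GRHL2, had 10.6, 11.6 and 9.89, and another in its body, 44965 bp away, had 13.5, 12.8 and 10.7. No start of another protein-coding gene within the 50 kb carried a peak.

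OVOL1, a zinc-finger repressor that restrains mesenchymal genes, had neither a promoter peak nor a body peak in any list. Its start site at position 65787063 of chromosome 11 lay in a gap of 36.6, 36.7 and 36.9 kb. The upstream border, 6.13, 6.14 and 6.18 kb away, was the peak at the start of AP5B1, with a fold enrichment of 9.83, 5.75 and 4.02. The downstream border was an intergenic peak 30.5, 30.5 and 30.7 kb away with 3.45, 3.2 and 2.65. The strongest mark near OVOL1 was thus that of its neighbour.

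ELF3, an ETS factor of epithelial cells, had a weak promoter peak and a series of peaks downstream. The promoter peak covered the start site at position 202010587 of chromosome 1 in each of the 3 large lists, with a fold enrichment of 7.17, 5.18 and 4.37, higher than 34.6%, 22.8% and 19.8% of marked promoters. It also covered the start of the antisense gene ELF3-AS1, so it cannot be assigned to ELF3 alone. The intergenic stretch beyond the gene carried peaks whose near edges were 7299, 11591, 23447, 35946, 45306 and 50983 bp from the start site in the merged lists, and another between them lay within 1 kb of the start of a non-coding gene (ENSG00000232296). The region at 45306 bp was the strongest. It spanned 4497 bp, with a fold enrichment of 20.8 in MDA-MB-231 replicate 2, 24 in Hs578T replicate 1 and 19.8 in Hs578T replicate 2, and in the Hs578T lists no peak within 50 kb of any of the 10 genes was higher. Upstream, the only start of another protein-coding gene with a peak was that of RNPEP, with 9.26, 6.53 and 5.75.

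The claudins CLDN3, CLDN4 and CLDN7 all had promoter peaks in the 3 large lists, but of unlike size. CLDN3, a gene of a single exon, had the weakest of the group, with a fold enrichment of 3.94, 2.87 and 3.26 and widths of 206, 544 and 457 bp. These values were higher than only 6.79%, 2.23% and 6.04% of the marked promoters, and in MDA-MB-231 replicate 2 the peak began 116 bp past the start site at position 73770270 of chromosome 7. In Hs578T replicate 1 it was also close to the limit of the list, with a −log10 q-value of 1.92, against 3.89 and 2.23 in the other lists. The strong peaks around CLDN3 belonged to neighbours, to the start of ABHD11 with 13.8, 10.4 and 7.72 and to that of STX1A with 14.9, 10.8 and 12.1. The STX1A region reached 22571 bp in width once the lists were merged, and only its edge lay within 50 kb of CLDN3.

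CLDN4, which lies on the same chromosome 60459 bp from the CLDN3 region as measured to its start site, had by far the wider mark. Its promoter peak covered the start site at position 73830996 in each of the 3 large lists and was 7048, 7065 and 6774 bp wide, wider than 97.8%, 97.4% and 97.5% of all peaks. The fold enrichment was 12.7, 10.5 and 8.12, higher than 71.5%, 66.6% and 61.9% of marked promoters. Peaks covered 9189, 9294 and 8552 bp within 10 kb of the start site, more than for 97.7%, 97.1% and 97% of all genes. Further peaks flanked the promoter on both sides. A region ending 7016 bp upstream, within the span of the longer CLDN4 transcripts, had 18.7, 13.3 and 11.9, and an intergenic region of 4171 bp that began 18117 bp downstream had 25.3, 20.2 and 17.2. In MDA-MB-231 replicate 2 that downstream region was the highest around any of the 10 genes. Between it and CLDN4 lay the weaker peak at the start of METTL27, with 8.03, 6.42 and 5.81.

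CLDN7 combined a strong promoter peak with the most crowded surroundings. The fold enrichment at its start site, position 7262478 of chromosome 17, was 13.5 in MDA-MB-231 replicate 2, 18.5 in Hs578T replicate 1 and 14.1 in Hs578T replicate 2, higher than 75.1%, 92.6% and 90.8% of marked promoters. Its peaks were 5848, 4886 and 4885 bp wide. They reached across the start site in MDA-MB-231 replicate 2, and ended 105 and 150 bp upstream of it in the Hs578T replicates, where another weak peak followed inside the gene. The promoter peak also covered the start of an unnamed protein-coding gene (ENSG00000262302). Of its window, 30.9%, 30.3% and 27% was covered by peaks, the largest share of the 10 genes. Most of its 11, 13 and 12 peaks were not its own, as 7, 8 and 8 lay at the start of another protein-coding gene, the nearest being CTDNEP1 and ELP5, whose shared region had 21.7, 16.6 and 13.6, and GABARAP and PHF23, with 11.8, 9.61 and 8.28, besides 6 further genes.

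**Figure D3:**
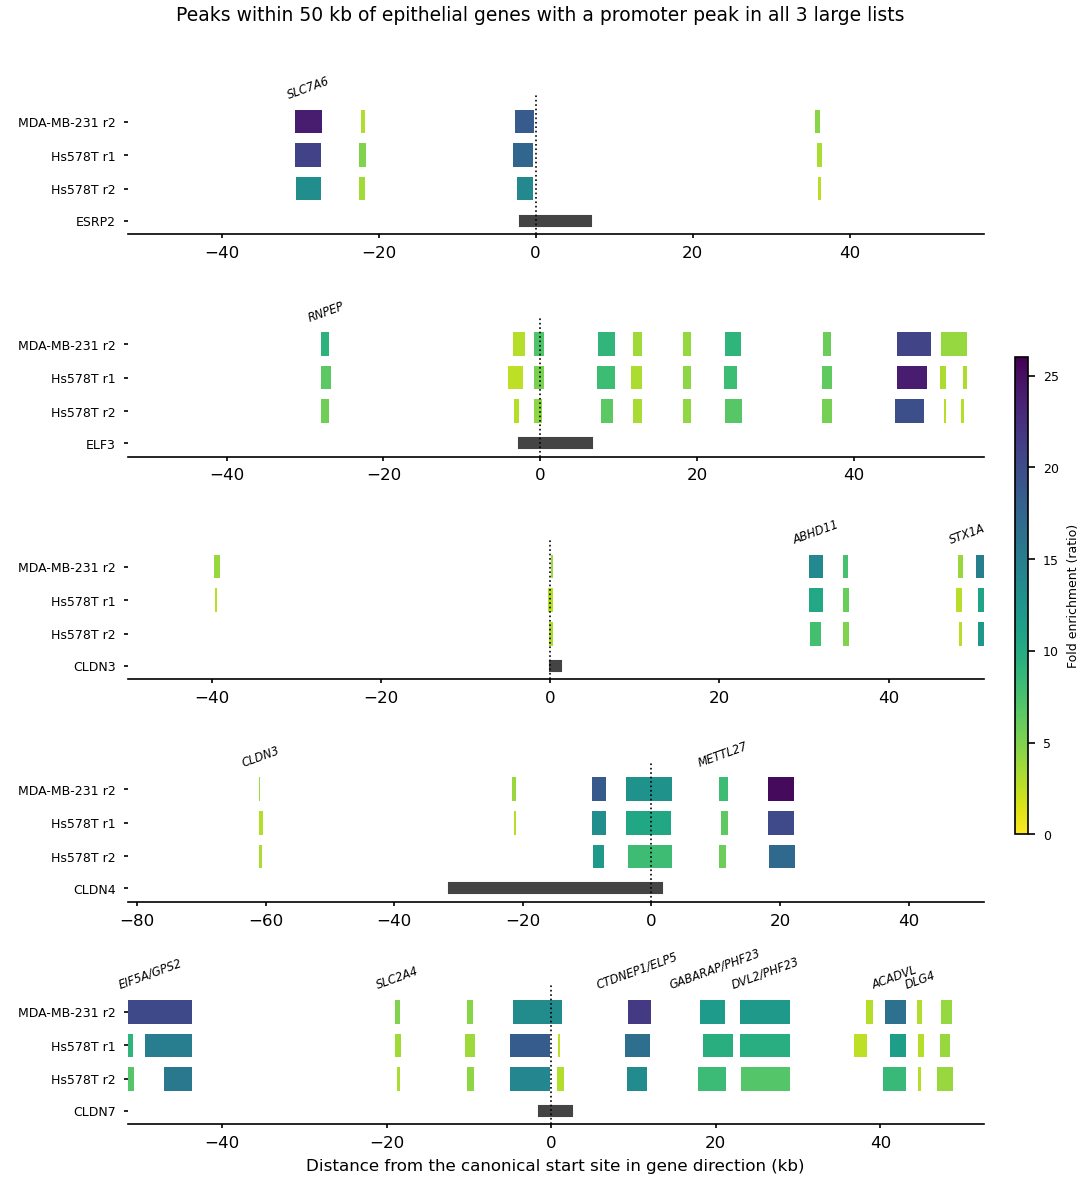
Peaks of the 3 large lists (rows) around the epithelial genes with a promoter peak in all of them, by distance from the canonical start site in kb and in the direction of the gene, coloured by fold enrichment (ratio). The dark bar is the annotated gene body, the dotted line the start site, and names mark peaks at the start of another protein-coding gene: the promoter peaks of CLDN4 and CLDN7 are wide, that of CLDN3 is narrow, and neighbours' starts surround CLDN7.

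Upstream sequences are given for 4 of the 10 genes, ELF3, CLDN3, CLDN4 and CLDN7, all of them with a promoter peak in the 3 large lists. Only these had an entry in the RefSeq promoter set used whose start was the canonical start site. The sequences upstream of the other genes, among them the unmarked CDH1, ESRP1 and OVOL1, were not searched in this way. The 250 bases before each start site are given because E-boxes near the start sites of junction genes are known binding sites of ZEB and SNAIL repressors. They are RefSeq sequences of GRCh38.p14, 5′ to 3′ on the strand of the gene, and capitals mark the E-box CAGGTG read on either strand (CAGGTG or CACCTG) and the AP-1 motif TGACTCA read on either strand (TGACTCA or TGAGTCA). They lie at chr1:202010337-202010586 on the plus strand for ELF3, chr7:73770271-73770520 on the minus strand for CLDN3, chr7:73830746-73830995 on the plus strand for CLDN4 and chr17:7262479-7262728 on the minus strand for CLDN7.
ELF3: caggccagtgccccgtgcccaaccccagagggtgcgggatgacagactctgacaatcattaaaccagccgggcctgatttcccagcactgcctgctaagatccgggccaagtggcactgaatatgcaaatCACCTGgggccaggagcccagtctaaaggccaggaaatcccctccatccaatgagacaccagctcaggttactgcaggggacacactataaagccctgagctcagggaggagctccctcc
CLDN3: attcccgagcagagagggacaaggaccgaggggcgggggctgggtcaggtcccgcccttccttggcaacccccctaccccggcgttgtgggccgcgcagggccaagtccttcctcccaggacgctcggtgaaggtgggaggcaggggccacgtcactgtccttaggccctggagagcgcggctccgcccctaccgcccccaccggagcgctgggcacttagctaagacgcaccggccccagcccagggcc
CLDN4: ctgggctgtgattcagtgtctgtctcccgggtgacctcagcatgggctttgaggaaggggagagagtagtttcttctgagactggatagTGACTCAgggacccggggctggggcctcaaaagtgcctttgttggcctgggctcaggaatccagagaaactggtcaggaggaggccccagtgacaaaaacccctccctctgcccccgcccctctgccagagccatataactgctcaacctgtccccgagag
CLDN7: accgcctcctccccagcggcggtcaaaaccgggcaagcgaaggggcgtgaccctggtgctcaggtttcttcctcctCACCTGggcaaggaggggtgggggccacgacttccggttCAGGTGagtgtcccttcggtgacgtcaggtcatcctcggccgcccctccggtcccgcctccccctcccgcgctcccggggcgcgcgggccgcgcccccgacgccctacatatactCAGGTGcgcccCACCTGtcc
CLDN7 had 4 E-box matches and ELF3 had 1, while CLDN3 and CLDN4 had 0. An E-box was present in 17.5% of the 34961 promoters of the set. A count of 4 or more, a limit set at the CLDN7 value itself after it was seen, was found in 0.123%, or 43 promoters. CLDN4 held the only AP-1 match, 161 bases upstream of its start, a motif found in 4.17% of promoters. The Grainyhead motif AACCNGTT, searched on both strands, was in none of the 4 and in 1.49% of all. The sequences also differed in CpG content, with an observed-to-expected CpG ratio of 0.806 for CLDN7 and 0.594 for CLDN3 against 0.19 for ELF3 and 0.185 for CLDN4, on either side of the median of 0.558 over all promoters. These matches describe the letters, and binding was not measured.

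Over all windows the 3 large lists held 68, 72 and 67 distinct peaks around the 10 genes. Own promoters took 7, 7 and 6 of them and own bodies 19, 20 and 17, of which 9, 8 and 9 were those of CDH1. The start of another protein-coding gene took 16, 17 and 17, and the start of a non-coding gene took 5, 5 and 4. Bodies of other genes held 9, 10 and 10, and 12, 13 and 13 were intergenic, of which 6, 7 and 7 lay downstream of ELF3. Counting also the peaks of a member that touch a further start, 30, 31 and 29 peaks lay at the start of some other gene. Many peaks near a gene did not mean a marked promoter, as CDH1 with 12, 11 and 12 peaks had none there and ESRP2 with 4 in each list had a strong one.

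**Figure D4:**
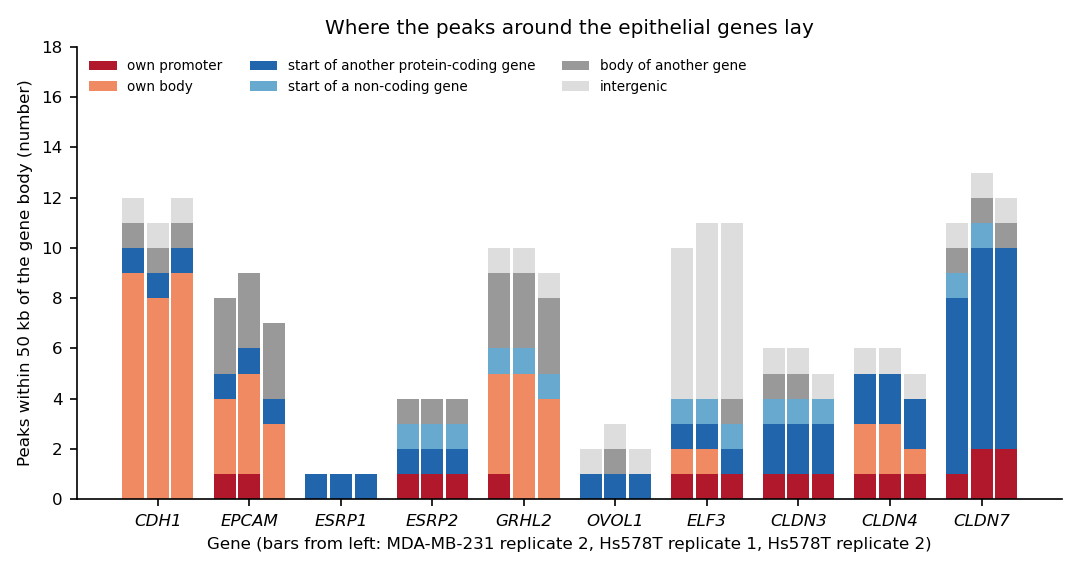
Number of peaks within 50 kb of each epithelial gene body by where they lay (colours), with a bar for each of the 3 large lists in the order MDA-MB-231 replicate 2, Hs578T replicate 1 and Hs578T replicate 2. Peaks in the body prevail at CDH1, starts of other protein-coding genes prevail at CLDN7, and the single peak of ESRP1 is at a neighbour's start.

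The lists held mostly the same regions around these genes. Of the 71 merged regions, 60, or 84.5%, were called in all 3 large lists, and over the whole genome 37832 of 50576, or 74.8%, were. Among the others, 6 lacked a peak in Hs578T replicate 2 alone, among them the canonical start of EPCAM, and the rest fell singly into other combinations. AP-1 sites are of interest here because AP-1 acts downstream of TWEAK. In the middle 500 bases of the 38 regions called in all 3 large lists and away from promoters, the AP-1 motif was found in 15, or 39.5%, and in 32.5% of all such regions. The E-box was found in 12, or 31.6%, against 30.9%, and the Grainyhead motif in 1, or 2.63%, against 3.5%. By gene, 4 of the 10 such regions of CDH1 and 4 of the 8 of ELF3 held the AP-1 motif. All these percentages lay close to their backgrounds, and no test was made on them.

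Companion lists of related genes were read by the same rule, to see how the 10 genes compared with others of their kind. Of 21 other claudins, 4 had a promoter peak in all 3 large lists and 16 had none. The highest were CLDN12, with a fold enrichment of 16.7, 15.4 and 11.8, CLDN2, with 13.1, 12.8 and 8.96, and CLDN16, with 17.3, 11 and 11.3, while CLDN5, CLDN6 and CLDN8 were among the unmarked. Over all protein-coding genes, 55.6% were marked in all 3 large lists and 40.7% in none. The other claudins, with 19% marked in all 3, were thus mostly unmarked. CLDN3, CLDN4 and CLDN7 were marked, CLDN3 only weakly. The genes were chosen with earlier results of these data known, so this contrast is description only. Of 31 other junction genes, 22 were marked in all 3 lists and 7 in none. The highest were CTNNA1, which encodes α-catenin, with 26.9, 22.4 and 17.1, TJP1, which encodes the scaffold of tight junctions, with 24.9, 21.5 and 16.4, and PALS1, a polarity scaffold, with 22.9, 21.1 and 17.2. Unmarked ones included MARVELD3, TJP3 and CRB3. No test between the lists was made.

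Of 12 other epithelial transcription factors, 4 were marked in all 3 lists and 6 in none. This count depended on the window, since within 2500 bp of the start site 7, 8 and 7 of the 12 had a peak in the 3 large lists, against 4, 5 and 5 within 1 kb. KLF4, with 13.2, 12.8 and 9.72, KLF5, with 7.11, 7.51 and 6.37, and TP63, with 6.22, 5.62 and 5.41, were the highest, and the relatives of members GRHL3, OVOL2 and OVOL3 were unmarked, like OVOL1 itself. GRHL1, another relative of GRHL2, had a peak in Hs578T replicate 1 alone, with 2.73, and EHF in Hs578T replicate 2 alone, with 3.24. Of 12 other epithelial surface and trafficking genes, 3 were marked in all lists, namely SPINT2, with 24.3, 16.9 and 14.5, MUC1, with 15.7, 13.9 and 11.5, and ERBB3, with 7.89, 7.92 and 7.2. Among the 8 in none were ST14, PRSS8 and SPINT1. All 10 of the other splicing regulators were marked in the 3 lists, with SRSF1 at 21.7, 23.5 and 20.1, QKI at 17.1, 17 and 10.3 and MBNL1 at 18.4, 12.3 and 11.5. ESRP1 was thus alone among the splicing regulators examined in having no promoter peak. Over all protein-coding genes, 55.6% were marked in all 3 lists and 40.7% in none, so a promoter without a peak was common. Of 4 genes whose transcripts ESRP proteins splice, CTNND1, with 12.9, 11.1 and 12.1, ENAH, with 13.5, 12 and 10.7, and CD44, with 9.11, 9.09 and 8.41, were marked, and FGFR2 was not.

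The genes of repressors that bind E-boxes were read by the same rule, although binding to the 10 genes was not measured. Of 12 E-box repressors and mesenchymal cadherins, 4 were marked in all 3 lists. ZEB1 was the highest, with 24.3, 24.2 and 17, followed by TCF3, with 17.3, 14.1 and 11.6, and SNAI2, with 5.57, 5.73 and 5.18. SNAI3, TWIST1 and TWIST2 were among the 6 without a promoter peak in any list. Of the mesenchymal markers VIM, CD44, AXL, FN1 and SPARC, 4 of 5 were marked in all 3 lists, with AXL at 29.8, 24.2 and 18.1, VIM at 17.8, 15.1 and 12.1 and FN1 at 11, 10.2 and 8.78. SPARC had a promoter peak in Hs578T replicate 1 alone. Of the luminal markers, the keratins KRT8, with 13, 14.8 and 12.6, and KRT18, with 10.3, 10.4 and 9.05, were marked, and ESR1, GATA3 and FOXA1 were not. The shares marked in all 3 large lists were thus 33.3% of the repressors and cadherins, 80% of the mesenchymal markers and 40% of the luminal markers. Over all protein-coding genes, 55.6% were marked in all 3 and 40.7% in none. These gene lists are small, and no test was made on them.

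**Figure D5:**
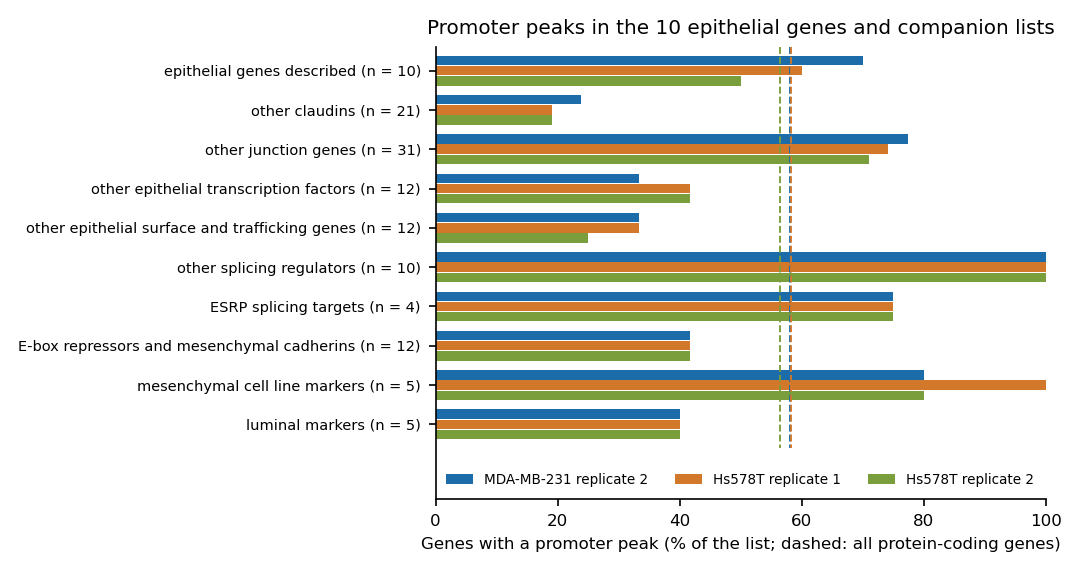
Percentage of the genes of each gene list marked at the promoter, with a bar for each of the 3 large peak lists, with the number of genes in brackets and the percentage of all protein-coding genes as dashed lines. The 10 epithelial genes lie at 70%, 60% and 50%, around the dashed lines, and the other claudins at 23.8%, 19% and 19%.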

How the data were processed

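H3K27ac ChIP-seq peak lists of 4 libraries were used, grouped by the sample titles. Per the paper and the labels, the authors used Trimmomatic for adaptor removal, Bowtie2 for mapping to hg38, MACS2 for calling peaks per library with input signal subtracted, and bedtools for taking out blacklisted regions. Versions and MACS2 settings are not given in the sources used here. Each deposited peak carries 9 columns, among them a score, which for nearly all peaks is the whole-number part of 10 times −log10 q. The deposited fold enrichment is a ratio to local background, the p-value and q-value were deposited as −log10, and the largest q-value of a list was 0.0827 to 0.0994. Because peaks were called per library against input, a weak region can pass in 1 library and miss in another, and counts of peaks move with the unknown depth.

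Peaks on chromosomes 1 to 22 and X were overlapped by at least 1 bp with GENCODE release 44 in Python 3.11.15 with NumPy 2.4.6, and figures were drawn with matplotlib 3.10.9. Peaks in a window were assigned, in this order, to the gene's own promoter, its own body, the start (within 1 kb) of another protein-coding gene, that of a non-coding gene, another gene's body, or intergenic sequence. The code for the promoter and 50 kb calls was run on peaks planted inside and outside the limits. It returned the planted answer for 199 of 199 genes. This checks the code by its own rule and says nothing on the data. The 10 genes and the companion lists were chosen with earlier results of these data known. All 10 genes are named, with neighbours whose start carries a peak in a window (beyond 4, the rest were counted, and 1 gene is not reported here), and from each companion list up to 3 genes with the highest median fold enrichment and up to 3 without a promoter peak. Alternatives were other windows, start sites, thresholds and overlaps, and leaving out each replicate. No test was made.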

Additional observations from a re-analysis of the deposited data

How the results depend on the processing

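Of 154 values recomputed for 56 results, 138 stayed within 1.5 times of the reported one and none reversed. The 138 include counts for MDA-MB-231 replicate 1 that were 0 in every setting, so these values could not move and say nothing on stability. Keeping only the 50% of peaks with the highest scores left 36, 39 and 35 peaks around the 10 genes in MDA-MB-231 replicate 2, Hs578T replicate 1 and Hs578T replicate 2. The genes marked at the promoter fell from 7, 6 and 5 to 4 in each of these lists. CLDN3 was lost from all 3 large lists, EPCAM from both lists that had marked it and GRHL2 from MDA-MB-231 replicate 2. Requiring a peak to cover 50% of the promoter window left 4, 2 and 2 genes. Within 10 kb instead of 50 kb there were 34, 35 and 32 peaks. Counted in both libraries of MDA-MB-231, 0 genes had a promoter peak and 0 a peak within 50 kb, and leaving out each replicate gave 0 to 7 and 0 to 10, the higher values without replicate 1. The cause was not tested, except that fewer peaks enter the stricter settings by construction. The 50% overlap also dropped strongly marked promoters whose peaks lay to one side of the start site, ESRP2 in all 3 large lists and CLDN7 in both Hs578T lists. A promoter of 2500 bp, or any annotated start site, added GRHL2 in both Hs578T lists, and any annotated start added EPCAM in Hs578T replicate 2. A promoter of 500 bp dropped GRHL2 from MDA-MB-231 replicate 2, and a q-value of at most 0.01 dropped CLDN3 from Hs578T replicate 1. CDH1, ESRP1 and OVOL1 stayed without a promoter peak in every setting of the promoter count. No paired analysis was possible because no result comes from a test. Depth was unknown, so how many weak promoters were missed cannot be said.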

Other observations

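Genes of the companion lists were also found whose body carried peaks while the promoter did not, as for CDH1. They were picked after their values were seen. CDH2, which encodes N-cadherin, had 8 body peaks in MDA-MB-231 replicate 2 and 7 in each Hs578T replicate, with no promoter peak in any list, and GRHL3, a relative of GRHL2, had the same numbers. ESR1, the oestrogen receptor gene, had 6, 8 and 7, and CDH3, the upstream neighbour of CDH1, had 5 in each of the 3 large lists. Among genes without a promoter peak in the 3 large lists, a body peak in each of them was found in 1905 of 8122, or 23.5%. By list this held for 3 of 16 other claudins, 4 of 7 other junction genes, 3 of 6 other epithelial transcription factors and 3 of 8 epithelial surface and trafficking genes. It also held for 3 of 6 E-box repressors and mesenchymal cadherins, 2 of 3 luminal markers and 0 of 1 ESRP splicing targets, and no test was made. Gene length, which sets how many peaks a body can hold, was not matched.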
